A study of Mus musculus with 12 samples.

Results

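Messenger RNA of 9 genes of the cornified layer and the hair was followed in mouse back skin: the 7 genes of the S100-fused type, Flg, Flg2, Hrnr, Rptn, Tchh, Tchhl1 and Crnn, together with Lor (loricrin) and Ivl (involucrin). The genes were chosen by their symbols, all 9 are among the 18505 genes deposited, and all 9 passed the filter on low values. The 12 samples, 4 in each of 3 groups, were skin of male wild-type BALB/c mice, 5 to 6 weeks old, whose back was shaved before treatment and whose skin was taken on day 10. The labels do not say whether each sample is 1 mouse. The control group received petroleum jelly, although the labels of these samples give an unclear treatment term. The IMQ + NS group received cream with imiquimod (IMQ), a Toll-like receptor 7 agonist that produces psoriasis-like lesions, for 6 h each day and then a dressing with 0.9% NaCl solution (NS). The IMQ + BZLF group received the same cream and then a dressing with Banzhilian formula (BZLF). This is an external preparation of 9 Chinese medicinal materials, at a dose that is not stated for the sequenced mice. The study's methods describe gauze and film over both dressings and no dressing for the control group. In comparisons with control, imiquimod and the dressing therefore cannot be told apart. Values are FPKM, fragments scaled to the length of the transcript and to the mapped total of the sample. Levels of different genes can then be set side by side. That holds less surely for Flg, Hrnr and Flg2, whose repeats are described below.

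The proteins of the S100-fused type join a calcium-binding S100 domain to long internal repeats. Filaggrin, made as a long precursor, bundles keratin filaments in the granular layer of the epidermis and is later broken down to free amino acids that hold water in the stratum corneum. Trichohyalin, the product of Tchh, has the matching role in the inner root sheath and medulla of the hair follicle, where deimination by peptidylarginine deiminases and cross-linking by transglutaminases harden it. Involucrin is laid down early under the plasma membrane of the differentiating keratinocyte and loricrin, rich in glycine, is added later as the main protein of the mature envelope. A drop of loricrin and filaggrin with more involucrin is a known feature of psoriatic epidermis in humans.

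The 9 genes lie on chromosome 3, in the epidermal differentiation complex. Their RefSeq bodies on GRCm38.p6 span from 92080271 to 92083142 for Lor and from 92570899 to 92573790 for Ivl, both on the minus strand. The 7 S100-fused genes follow on the plus strand in the order Crnn (93144789 to 93149818), Flg2 (93197273 to 93221377), Flg (93273546 to 93293689), Hrnr (93319749 to 93333572), Rptn (93393699 to 93399442), Tchh (93442330 to 93449077) and Tchhl1 (93468754 to 93471980). The start sites of Crnn and Tchhl1 are 324 kb apart. In the longest GENCODE transcript of each gene, which for Flg and Flg2 is of a type without an annotated coding sequence, the longest exon holds 77.9% of the Crnn transcript, 89.5% of the Tchhl1 transcript and between 95.1% and 99.0% of the transcripts of the other 7 genes. The share of 50-base words that occur more than 1 time inside the same transcript was 79.2% for Flg, 69.1% for Hrnr and 65.3% for Flg2, against 10.1% for Tchh, 5.49% for Rptn, 0.374% for Ivl and 0 for Crnn, Tchhl1 and Lor. No 50-base word was shared between any 2 of the 9 transcripts. Reads from the repeats of Flg, Hrnr and Flg2 have several places inside their own gene, and how such reads were counted is not given in the sources used here.

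Some libraries stood apart. Control replicate 2 had 1771 FPKM in 7 inner root sheath keratins added up, against 15.7 to 51.4 in the other controls. Seminal vesicle genes summed to 39.1 FPKM in control replicate 2 and to 38.8 in IMQ + BZLF replicate 2, against at most 0.0441 in the other 10 samples. Called log2 fold changes printed below that lost their call or moved by more than 1.5 times without either library are also given without it. Skeletal muscle genes summed to 3346 to 8220 FPKM in control, 619 to 1529 in IMQ + NS and 1099 to 1456 in IMQ + BZLF samples, and fibroblast genes to 13085 to 18643, 3681 to 4890 and 4286 to 8109 FPKM. In each comparison with control all 6 muscle genes fell (Mylpf and Myh4 most in IMQ + NS, Ckm and Tnnt3 most in IMQ + BZLF samples), as did 5 of 6 fibroblast genes (Col1a1, Col1a2, Col3a1, Dcn and Lum) and 3 of 5 adipocyte genes (Adipoq, Plin1 and Cidec). In whole skin, fewer cells of a type and less RNA per cell cannot be told apart.

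Control skin and the treated skins differed in the order of the levels. Lor was the most abundant of the 9 genes in every control sample, with 54.6% of their summed FPKM in control replicate 2 and 93.6% to 94.3% in the other controls. Tchh was the most abundant in all 8 IMQ-treated samples, with 60.9% to 77.1%. Together the genes made up 0.125% to 0.207% of the FPKM of a control sample, 0.450% to 0.562% in IMQ + NS and 0.532% to 0.710% in IMQ + BZLF samples. The levels of Flg, Hrnr and Flg2 in these sums depend on how reads from their repeats were counted.

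**Figure D1:**
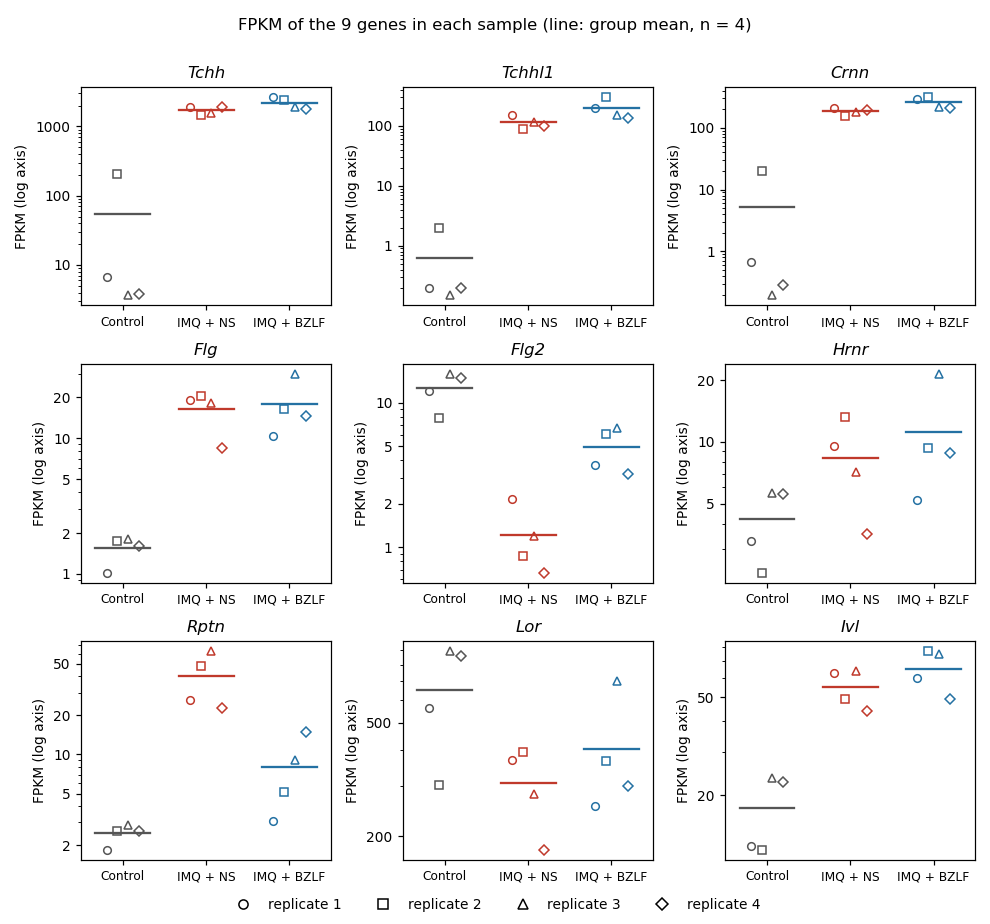
FPKM of each gene (vertical log axis, a separate range per gene) in the 12 samples, with 4 samples per group shown by a marker per replicate and the group mean as a line. Control replicate 2 lies above the other controls for Tchh, Tchhl1 and Crnn, Flg2 falls and Rptn rises in IMQ + NS samples, and both lie between in IMQ + BZLF samples.

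In IMQ + NS against control samples, 6 of the 9 genes rose and 2 fell, where genes were called from an adjusted p under 0.05 together with a change of more than 1 on the log2 scale (limma, Benjamini-Hochberg over 15288 genes). Among all genes tested, 22.4% were called, 11.4% higher and 11.0% lower. The median log2 fold change of the 9 genes was 3.30, against 0.053 over all genes tested. The largest rises were those of Tchhl1, Crnn and Tchh, followed by Rptn, Flg and Ivl, while Flg2 and Lor fell and Hrnr did not pass. For 7 of the 9 genes the 2 groups did not overlap, compared with 49.4% of all genes. In IMQ + BZLF against control samples 7 genes were higher and 1 was lower, where 19.7% of all genes were called, 9.65% higher and 10.1% lower. Again 7 of the 9 did not overlap, compared with 47.5% of all genes. Both comparisons use the same control samples.

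**Figure D2:**
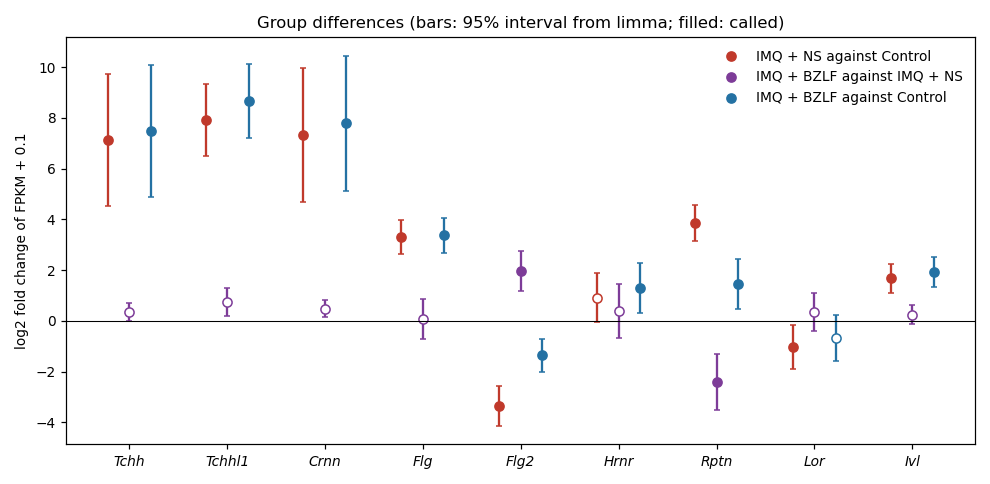
Log2 fold change of FPKM + 0.1 (vertical axis) of each gene in the 3 comparisons of groups of 4, with the 95% interval from limma as bars, and filled points for called genes. Between IMQ + BZLF and IMQ + NS samples Flg2 (1.98) and Rptn (-2.41) are the filled points, while Tchh, Tchhl1 and Crnn lie above 7 in both comparisons with control.

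Tchh, the trichohyalin gene, had 6.78, 203, 3.64 and 3.85 FPKM in control replicates 1 to 4. In the IMQ + NS group it had 1917, 1473, 1548 and 1874 FPKM, and in the IMQ + BZLF group 2657, 2364, 1890 and 1805 FPKM. Every treated sample was thus far above every control, and the control with the high value is the one with inner root sheath keratins. The log2 fold change in IMQ + NS against control was 7.14 with an SE of 1.15 (limma, adjusted p = 9.3e-04). Without control replicate 2 it was 8.502, a 362-fold difference in place of 141-fold. The IMQ + BZLF samples differed from control by 7.49 with an SE of 1.15 (adjusted p = 9.4e-04), or 8.85 without that library.

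Crnn encodes cornulin, a protein of the S100-fused type best known from cornified mucosa and the upper epidermis. Its level was 0.672, 19.8, 0.194 and 0.287 FPKM in the controls, 209.6, 156, 180.1 and 197 FPKM in IMQ + NS and 296, 316, 221 and 207 FPKM in IMQ + BZLF samples. As with Tchh, control replicate 2 stood between the other controls and the treated samples. Crnn differed between IMQ + NS and control samples by a log2 fold change of 7.33 with an SE of 1.17 (limma, adjusted p = 9.0e-04), or 8.70 without control replicate 2. For IMQ + BZLF samples the value against control was 7.80 with an SE of 1.17 (adjusted p = 8.6e-04), or 9.17 without it.

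Tchhl1, the trichohyalin-like 1 gene next to Tchh, had 0.194, 1.97, 0.149 and 0.200 FPKM in the controls. It had 149, 89.8, 115 and 100.4 FPKM in IMQ + NS and 197, 302, 150.1 and 134 FPKM in IMQ + BZLF samples. Treated and control samples did not overlap, and control replicate 2 was again the highest control. Between IMQ + NS and control samples the log2 fold change of Tchhl1 was 7.92 with an SE of 0.62 (limma, adjusted p = 2.2e-05) and 8.66 in IMQ + BZLF against control with an SE of 0.64 (adjusted p = 2.6e-05). Without control replicate 2 these were 8.64 and 9.38. Because 0.1 was added to values near that size, the fold of Tchhl1 is understated.

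The profile of each of these genes over the 12 samples was matched to 12648 other genes with a mean of at least 1 FPKM, by the root mean square difference of log2 values centred on the gene's own mean. The closest to Tchh were Padi3 (0.15), a peptidylarginine deiminase known to act on trichohyalin, S100a3 (0.22), a calcium-binding protein of the hair cuticle, and Krt26 (0.22), an inner root sheath keratin. The closest to Crnn were Krt26 (0.11), Krt27 (0.28), a further keratin of that sheath, and S100a3 (0.29). The difference between Crnn and Tchh themselves was 0.18, in profiles whose own root mean square size was 3.84 and 3.72. The genes closest to Tchhl1 were Gm7579 (0.30), Gm45618 (0.34) and Gm4553 (0.35). The mean level of Padi3 was 4.74 FPKM in control, or 0.292 without control replicate 2, against 124 with saline and 155 with BZLF. That of Krt26 was 4.08 FPKM in control, or 0.370 without control replicate 2, against 170.4 and 249.

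Keratins of the inner root sheath, where trichohyalin is known, rose with these genes in the treated groups. Of 8 listed, 7 were in the deposited values and all 7 rose in both treated groups against control, with median log2 fold changes of 6.93 and 7.28, or 8.43 and 8.79 without control replicate 2. In IMQ + NS against control the largest were Krt72 (7.38) and Krt26 (7.34). Without control replicate 2, Krt26 (8.63), Krt71 (8.61) and Krt72 (8.53) came close together. The same keratins led in IMQ + BZLF against control, with Krt72 at 7.88 and Krt26 at 7.88, or 9.03 and 9.17 without that library. Their summed level was 6780 to 8713 FPKM in IMQ + NS and 8445 to 11896 FPKM in IMQ + BZLF samples. The ratio of Tchh to Krt25 was 0.518, 0.421, 1.07 and 0.985 in the controls, with the lowest in control replicate 2. It lay between 0.871 and 0.953 in the IMQ + NS group and between 0.884 and 1.13 in the IMQ + BZLF group, a narrower range than in the controls. Keratins of mucosa, where cornulin is also known, were low or not called. Krt78 reached at most 5.71 FPKM, Krt4 0.420, Krt24 0.415, Krt13 0.221 and Krt76 0.0108 in any sample. Krt24 had a mean of 0.285 FPKM in control and 0 in IMQ + NS samples, and was not tested. Neither Krt4 nor Krt78, the 2 tested of 5 listed, was called in any comparison. Between IMQ + BZLF and IMQ + NS samples 0 were higher and 0 lower at an unadjusted p below 0.05 (limma). The part of hair follicle content in the rise of Tchh, Tchhl1 and Crnn was not tested.

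**Figure D3:**
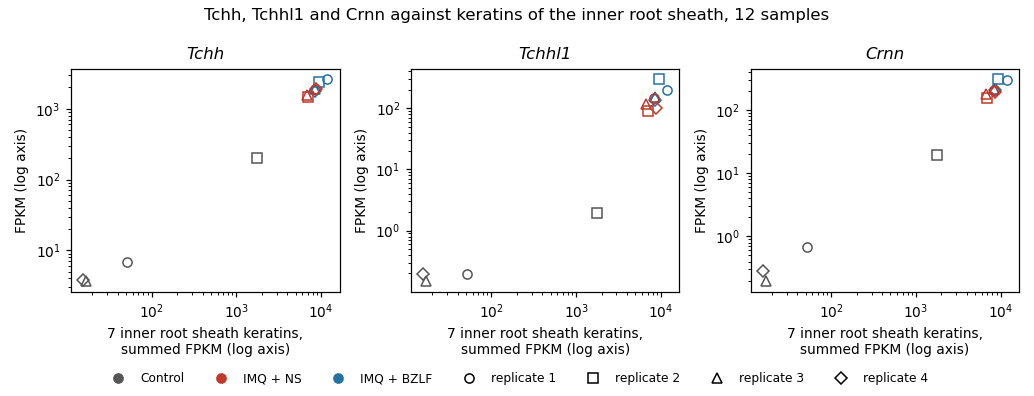
FPKM of Tchh, Tchhl1 and Crnn (vertical log axes) against the summed FPKM of 7 inner root sheath keratins (horizontal log axes) in the 12 samples, with groups by colour and replicates by marker. Control replicate 2, at 1771 FPKM of keratins, lies between the other controls and the 8 treated samples in each panel.

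The 250 bases before the start sites of Crnn, Tchhl1 and Tchh are shown because these genes rose together from both ends of the S100-fused cluster. Sequences are from RefSeq on GRCm38.p6, run 5′ to 3′ on the strand of the gene, and have in capitals the matches on either strand to 5 motifs. The TATA box was searched as TATAAA. The motif of AP-1 factors was searched as TGANTCA, where N is any base, which is looser than their consensus with C or G at N. The motif of KLF factors was searched as CACCC. For GATA factors the letters were AGATAA. For LEF/TCF factors the letters were CTTTGA, and a match to these shares bases with the GATA match in Tchh.
Crnn chr3:93144539-93144788 (GRCm38.p6, plus strand): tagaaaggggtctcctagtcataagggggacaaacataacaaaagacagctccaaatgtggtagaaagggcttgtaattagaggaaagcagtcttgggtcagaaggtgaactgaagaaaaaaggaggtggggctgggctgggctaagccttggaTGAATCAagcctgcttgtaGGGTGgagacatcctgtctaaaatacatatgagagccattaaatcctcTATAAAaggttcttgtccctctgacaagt
Tchhl1 chr3:93468504-93468753 (GRCm38.p6, plus strand): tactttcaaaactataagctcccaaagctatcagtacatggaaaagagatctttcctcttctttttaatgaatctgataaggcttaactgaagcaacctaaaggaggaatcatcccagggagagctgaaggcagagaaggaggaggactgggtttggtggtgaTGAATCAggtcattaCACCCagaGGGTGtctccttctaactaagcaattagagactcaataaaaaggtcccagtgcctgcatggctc
Tchh chr3:93442080-93442329 (GRCm38.p6, plus strand): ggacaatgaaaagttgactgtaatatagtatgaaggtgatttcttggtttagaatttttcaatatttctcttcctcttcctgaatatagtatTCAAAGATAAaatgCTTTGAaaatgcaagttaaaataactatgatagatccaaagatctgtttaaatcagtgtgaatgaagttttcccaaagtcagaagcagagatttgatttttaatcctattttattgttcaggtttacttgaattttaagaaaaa
A match to TGANTCA stood in 7 of the 9 windows, against 6.75% of 32851 promoter windows of this length. Only Lor (TGAGTCA) and Ivl (TGACTCA) had C or G at N. Crnn, Tchhl1, Flg and Flg2 held TGAATCA, and Rptn held TGATTCA. The match was at position -96 from the start in Crnn and -87 in Tchhl1. No match to TGANTCA was found in the windows of Tchh and Hrnr. The Tchh window held LEF/TCF matches at -158 and -144 and a GATA match at -154. LEF/TCF letters were in 3 of the 9 windows, with Flg2 (-237) and Hrnr (-64), against 13.8% of all windows. GATA letters were in 2 of the 9 windows, with Flg2 (-109), against 9.99% of all windows. The TATA box was matched in 6 of the 9 windows, against 12.4% of all windows, among them Crnn at -29 and neither Tchh nor Tchhl1. The Tchhl1 window has the letters caataaaaagg near its end, a spelling that was not searched. KLF letters, found in 6 of the 9 windows, occur in 52.0% of all windows. These matches are descriptions of the letters and not of bound sites.

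Flg, the profilaggrin gene, had 1.02, 1.75, 1.80 and 1.59 FPKM in the controls. It had 19.2, 20.4, 18.3 and 8.43 FPKM in IMQ + NS and 10.4, 16.3, 29.7 and 14.6 FPKM in IMQ + BZLF samples. The treated groups overlapped with each other and not with the controls. The rise in IMQ + NS against control was 9.82-fold, a log2 fold change of 3.30 with an SE of 0.30 (limma, adjusted p = 4.7e-05), and 3.37 in IMQ + BZLF against control with an SE of 0.31 (adjusted p = 8.8e-05). Its closest profiles were those of Lce1g (0.40), a late cornified envelope gene, Fgf22 (0.46), a fibroblast growth factor, and Klk15 (0.48), a kallikrein protease.

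Flg2, which encodes filaggrin-2, a related repeat protein of the granular layer, went the other way. Its levels were 12.2, 7.85, 15.8 and 15.0 FPKM in the controls, 2.16, 0.869, 1.20 and 0.669 FPKM in IMQ + NS and 3.69, 6.08, 6.68 and 3.22 FPKM in IMQ + BZLF samples. No group overlapped with another, and the IMQ + BZLF samples lay between the others. Flg2 was 10.2-fold lower in IMQ + NS than in control samples, a log2 fold change of -3.35 with an SE of 0.35 (limma, adjusted p = 9.7e-05). It was 3.94-fold higher in IMQ + BZLF than in IMQ + NS samples, at 1.98 with an SE of 0.35 (adjusted p = 0.0134), and still below control at -1.37 with an SE of 0.29 (adjusted p = 0.0046). Without IMQ + BZLF replicate 2, the library with seminal vesicle genes, the log2 fold change between IMQ + BZLF and IMQ + NS samples was 1.86 (adjusted p = 0.0501). The closest profiles to Flg2 were those of Acoxl (0.44), Pcdh20 (0.45) and Glt8d2 (0.50).

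The windows before the start sites of Flg and Flg2 are shown because these neighbours in name and place, with starts 76.3 kb apart, moved in opposite directions.
Flg chr3:93273296-93273545 (GRCm38.p6, plus strand): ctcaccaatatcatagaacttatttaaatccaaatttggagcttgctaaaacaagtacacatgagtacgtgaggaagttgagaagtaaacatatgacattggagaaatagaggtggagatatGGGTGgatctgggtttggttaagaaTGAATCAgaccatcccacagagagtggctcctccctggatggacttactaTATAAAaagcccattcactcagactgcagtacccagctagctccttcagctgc
Flg2 chr3:93197023-93197272 (GRCm38.p6, plus strand): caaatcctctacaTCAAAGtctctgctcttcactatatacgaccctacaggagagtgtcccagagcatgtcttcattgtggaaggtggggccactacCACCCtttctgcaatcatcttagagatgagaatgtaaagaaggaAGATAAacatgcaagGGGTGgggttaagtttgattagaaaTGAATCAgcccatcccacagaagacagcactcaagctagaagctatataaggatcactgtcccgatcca
Both held TGAATCA, a match to the AP-1 search, at -103 in Flg and -69 in Flg2. The longest run of bases that the Flg and Flg2 windows share was 12 bases long, CCATCCCACAGA, and began at -94 and -60, at the same distance after the AP-1 match. No longer run was shared by any pair of the 9 windows. The Flg window held the letters TATAAA at -53, which were not found in the Flg2 window. The Flg2 window has the letters tatataa near its end, a spelling that was not searched. The bases that follow the RefSeq start of Flg2 were found in no GENCODE transcript of this gene, so positions counted from that start are less sure.

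The ratio of Flg to Flg2 within a sample shows their divergence. It was 0.0839, 0.223, 0.114 and 0.107 in the controls, 8.87, 23.5, 15.3 and 12.6 in IMQ + NS and 2.81, 2.69, 4.45 and 4.53 in IMQ + BZLF samples. The 3 groups of ratios did not overlap. These ratios rest on the values given above and are a description. Their size also depends on how reads from the repeats of both genes were counted, which is not given.

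Hrnr, which encodes hornerin, a repeat protein of the cornified envelope, had 3.30, 2.31, 5.64 and 5.60 FPKM in control, 9.57, 13.3, 7.10 and 3.57 FPKM in IMQ + NS and 5.22, 9.33, 21.4 and 8.85 FPKM in IMQ + BZLF samples. All 3 groups overlapped. The log2 fold change in IMQ + NS against control was 0.92, with a 95% interval from -0.044 to 1.88 (adjusted p = 0.0934 from limma). Relative to control, IMQ + BZLF samples differed by 1.29 with an SE of 0.43 (adjusted p = 0.0335). That call was lost without control replicate 2 (1.04, adjusted p = 0.0584), control replicate 1 (1.21, adjusted p = 0.0831), IMQ + BZLF replicate 2 (1.32, adjusted p = 0.0638), replicate 3 (0.92, adjusted p = 0.0663) or replicate 4 (1.34, adjusted p = 0.0579), with all genes kept (adjusted p = 0.0585) and with quantile normalization (1.22, adjusted p = 0.0532). The closest profiles to Hrnr belonged to Lce1j (0.39), Lce1f (0.41) and Lce1e (0.45), all late cornified envelope genes.

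Rptn encodes repetin, a protein of the S100-fused type found in the upper epidermis and in tongue and forestomach. It had 1.84, 2.59, 2.87 and 2.55 FPKM in control, 26.4, 48.3, 62.3 and 22.7 FPKM in IMQ + NS and 3.08, 5.15, 9.10 and 15.0 FPKM in IMQ + BZLF samples. The IMQ + NS samples lay above all others, and every IMQ + BZLF sample lay above every control. The log2 fold change in IMQ + NS against control was 3.86 with an SE of 0.31, a 14.5-fold rise (limma, adjusted p = 2.8e-05). After BZLF it was different from the saline-treated lesions by -2.41 on the log2 scale with an SE of 0.49, 5.30-fold lower (adjusted p = 0.0221), and in IMQ + BZLF against control 1.45 with an SE of 0.43 (adjusted p = 0.0194). Leaving out IMQ + BZLF replicate 2 (-2.27, adjusted p = 0.0753), IMQ + NS replicate 2 (-2.27, adjusted p = 0.0570) or IMQ + NS replicate 3 (-2.15, adjusted p = 0.0648) ended the call of the fall after BZLF, as did keeping all genes in the test (adjusted p = 0.0597). The higher level than in control was not called without control replicate 1 (1.33, adjusted p = 0.0560) or IMQ + BZLF replicate 3 (1.32, adjusted p = 0.0535).

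The window before the start site of Rptn, the gene that was lower after BZLF, is shown beside those of its neighbours.
Rptn chr3:93393449-93393698 (GRCm38.p6, plus strand): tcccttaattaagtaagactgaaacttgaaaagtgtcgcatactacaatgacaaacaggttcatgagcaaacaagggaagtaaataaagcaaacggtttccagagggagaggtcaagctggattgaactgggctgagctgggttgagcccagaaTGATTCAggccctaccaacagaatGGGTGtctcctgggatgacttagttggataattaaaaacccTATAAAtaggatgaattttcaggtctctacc
It held the TATA box letters at -31 and KLF letters at -72. A match to the AP-1 search, TGATTCA, stood at -96, the position of TGAATCA in Crnn. The profiles closest to Rptn were those of Klk9 (0.44), a kallikrein protease, Rbp2 (0.48), a retinol-binding protein, and Cxcr2 (0.50), a chemokine receptor of neutrophils. Neutrophil genes, of which 7 of 7 rose in IMQ + NS against control samples and 7 of 7 fell after BZLF, had a summed level of 31.9 to 50.6 FPKM in control, 3128 to 9892 FPKM in IMQ + NS and 62.7 to 83.6 FPKM in IMQ + BZLF samples. S100a8 and S100a9 changed most in both. With means of 3010 and 2909 FPKM they made up nearly all of that sum in IMQ + NS samples. Among the rest of the list Csf3r had the highest IMQ + NS mean, at 14.8 FPKM against 2.88 in control. The sum therefore follows S100a8 and S100a9 and is not a measure of neutrophil number. Without IMQ + BZLF replicate 2 the fall of Ly6g was not called (-2.18, adjusted p = 0.126). In IMQ + BZLF against control samples S100a8 rose (1.66) and Retnlg fell (-1.48). All 4 keratins of activated epidermis rose in IMQ + NS against control, with log2 fold changes of 7.62 for Krt6b, 7.53 for Krt16, 5.51 for Krt6a and 2.48 for Krt17. After BZLF, Krt16 (-4.95), Krt6b (-4.42) and Krt6a (-2.39) fell and Krt17 was not called (-0.44). Against control all 4 were higher in IMQ + BZLF samples, at 3.2001 for Krt6b, 3.12 for Krt6a, 2.58 for Krt16 and 2.04 for Krt17. The part of either in the values of Rptn was not tested.

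**Figure D4:**
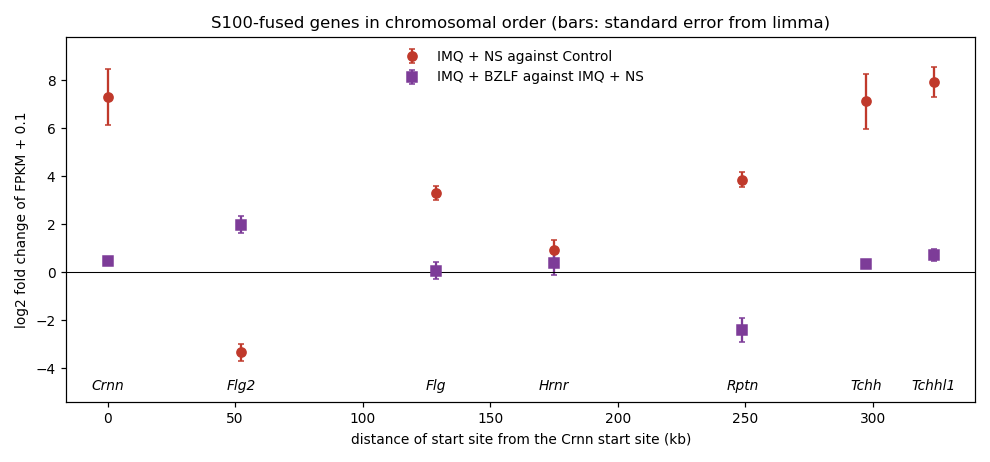
Log2 fold change of FPKM + 0.1 (vertical axis, bars are the standard error from limma) of the 7 S100-fused genes by the distance of their start sites from that of Crnn in kb, for IMQ + NS against control (circles) and IMQ + BZLF against IMQ + NS (squares). In IMQ + NS against control, the fall of Flg2 (-3.35) stands between the rises of Crnn (7.33) and Flg (3.30), and Tchh and Tchhl1 lie at the other end of the cluster.

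Lor had 563, 303, 891 and 860.2 FPKM in control, 371, 397, 282 and 179 FPKM in IMQ + NS and 255, 367, 700.0 and 301 FPKM in IMQ + BZLF samples. Control replicate 2, the lowest control, lay within the range of both treated groups, and IMQ + BZLF replicate 3 lay above control replicate 1. The log2 fold change in IMQ + NS against control was -1.03 with an SE of 0.37 (limma, adjusted p = 0.0422), close to both thresholds, and an exact permutation test (two-sided, n = 4 and 4) gave p = 0.0857. Without control replicate 2 the value was -1.36 (adjusted p = 0.0033), and leaving out any of 6 other samples ended the call, with values from -0.80 to -1.15 and adjusted p from 0.0539 to 0.110. The call also ended with all genes kept in the test (adjusted p = 0.0696), without the trend of limma (adjusted p = 0.0522) and with the replicate number as a block (adjusted p = 0.0903). The IMQ + BZLF samples differed from control by -0.68, with a 95% interval from -1.60 to 0.24 (adjusted p = 0.183), or -1.01 without control replicate 2 (adjusted p = 0.0258). The closest profiles to Lor were those of Dkkl1 (0.18), Aif1l (0.22) and 2310050C09Rik (0.23).

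Ivl rose. It had 12.4, 11.99, 23.5 and 22.7 FPKM in control, 63.0, 49.3, 63.8 and 44.0 FPKM in IMQ + NS and 60.02, 76.8, 75.0 and 49.2 FPKM in IMQ + BZLF samples. Treated and control samples did not overlap, while the treated groups overlapped with each other. The rise was 3.22-fold in IMQ + NS against control, a log2 fold change of 1.69 with an SE of 0.25 (limma, adjusted p = 6.3e-04), and 3.804-fold in IMQ + BZLF against control, at 1.93 with an SE of 0.26 (adjusted p = 5.1e-04). The closest profiles were those of Rnf223 (0.20), Atg9b (0.22) and Lypd5 (0.23). In their windows, Lor held the AP-1 letters at -48 and the TATA box at -27, and Ivl the AP-1 letters at -116 and the TATA box at -29.

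Involucrin RNA thus gained on loricrin RNA. The ratio of Ivl to Lor was 0.0221, 0.0396, 0.0264 and 0.0264 in control, 0.170, 0.124, 0.226 and 0.245 in IMQ + NS and 0.236, 0.209, 0.107 and 0.164 in IMQ + BZLF samples. Treated samples lay above every control, and the ratios of the treated groups overlapped.

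**Figure D5:**
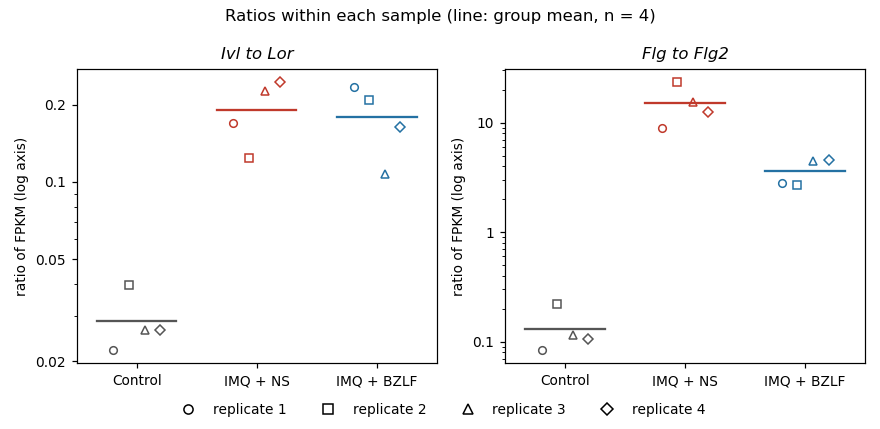
Ratio of FPKM within each sample (vertical log axes) of Ivl to Lor and of Flg to Flg2, with 4 samples per group by a marker per replicate and the group mean as a line. The ratio of Ivl to Lor overlaps between IMQ + NS (0.124 to 0.245) and IMQ + BZLF samples (0.107 to 0.236), while that of Flg to Flg2 is lower in IMQ + BZLF samples (2.69 to 4.53) than in IMQ + NS samples (8.87 to 23.5).

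In IMQ + BZLF against IMQ + NS samples, Flg2 rose and Rptn fell, and the other 7 genes were not called, where 2.52% of all genes were called, 0.321% higher and 2.20% lower. The 2 groups did not overlap for Flg2 and Rptn, and 15.2% of all genes did not overlap. For both, the exact permutation test (two-sided, 4 against 4 samples) gave p = 0.0286, the smallest it can give. The log2 fold change was 0.74 for Tchhl1 (95% interval 0.17 to 1.31, adjusted p = 0.123), 0.47 for Crnn (0.13 to 0.81, adjusted p = 0.103) and 0.35 for Tchh (0.0041 to 0.69, adjusted p = 0.215), none past the threshold of limma. The inner root sheath keratins had a median of 0.33 there, with 0 of 7 called (limma) and 3 of 7 higher at an unadjusted p below 0.05. Flg had 0.070 (95% interval -0.73 to 0.87), Hrnr 0.37 (-0.69 to 1.44), Lor 0.35 (-0.41 to 1.11) and Ivl 0.24 (-0.14 to 0.62). The intervals of all 7 genes reach beyond a 1.5-fold change. Within the IMQ + BZLF group, replicate 3 had the highest Flg, Flg2, Hrnr and Lor, and replicates 1 and 2 the highest Tchh, Tchhl1 and Crnn.

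Most of the genes listed for the processing of filaggrin and its products rose. Of 12 listed, 7 rose and 1 fell in IMQ + NS against control, with a median log2 fold change of 1.54 (limma). The largest rises were those of Padi3 (6.94, adjusted p = 0.0012) and Padi1 (6.57, adjusted p = 3.3e-04), which convert arginine to citrulline in filaggrin and trichohyalin. Without control replicate 2 these were 8.33 for Padi3 and 7.59 for Padi1. Padi3 was also the closest profile to Tchh (0.15). Padi1 too was highest among the controls in control replicate 2, at 3.34 FPKM against 0.0617 to 0.160 in the others. Whether the rise of either gene belongs to epidermis or hair follicle was not tested. Casp14, named after its values were seen, encodes the caspase that cuts filaggrin in the cornified layer and rose by 3.55. The 1 that fell was Hal (-1.40, adjusted p = 6.6e-04), histidase, which makes urocanic acid from the histidine set free from filaggrin. In IMQ + BZLF against control, again 7 rose and 1 fell, with Padi3 at 7.26 and Padi1 at 7.06, or 8.66 and 8.08 without control replicate 2, and Hal at -1.22. Between IMQ + BZLF and IMQ + NS samples limma called 0 of the 12, with 3 higher and 4 lower at an unadjusted p below 0.05.

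The cross-linking and scaffold genes of the envelope, into which loricrin and involucrin are built, were mostly higher. Of 10 listed, 7 rose and 0 fell in IMQ + NS against control (limma, 0 lower also at an unadjusted p below 0.05), with a median log2 fold change of 1.42, led by the transglutaminases Tgm3 (4.002, adjusted p = 2.5e-04) and Tgm1 (2.42, adjusted p = 7.7e-06). The same numbers held in IMQ + BZLF against control, with Tgm3 at 3.85 and Tgm1 at 2.22, and 0 of 10 were called after BZLF, with 0 higher and 3 lower at an unadjusted p below 0.05. Of 20 transcription factors of keratinocyte differentiation, 8 rose in IMQ + NS against control, with Ehf (3.66) and Ovol1 (2.85) rising most, and the 1 called after BZLF was Elf3 (-1.26, adjusted p = 0.0150), which was not called without IMQ + BZLF replicate 2 (-1.17, adjusted p = 0.0533). In IMQ + BZLF against control the 5 that rose were Ovol1 (2.95), Ehf (2.87), Prdm1 (2.20), Grhl1 (1.63) and Zfp750 (1.47), and 8 rose without control replicate 2. Of 12 suprabasal genes, Krt1 (2.37), Dsc1 (2.04) and Calml3 (1.73) rose and Krt77 (-7.40) fell in IMQ + NS against control. After BZLF, Krt77 was the 1 of the 12 called, at 3.27 (adjusted p = 0.0035 from limma). In IMQ + BZLF against control 4 rose, with Dsc1 (1.75) and Krt2 (1.74) rising most, and Krt77 (-4.13) and Krtdap (-1.11) fell. Without IMQ + BZLF replicate 2 neither Krt2 (adjusted p = 0.0568) nor Krtdap (adjusted p = 0.0620) was called, and 2 rose and 1 fell. Of 6 basal genes, Krt5 (1.32) and Krt14 (2.08) rose in IMQ + NS samples and Krt14 fell after BZLF (-1.54, adjusted p = 0.0057).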

How the data were processed

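Total RNA of back skin was sequenced in 12 samples. According to the study's methods, RNA with an integrity number of at least 7 went into ribosomal-RNA-depleted stranded libraries, reads were aligned with Bowtie2 to mRNA and lncRNA transcripts, and eXpress gave counts and FPKM per gene. The submitters' processing notes instead name fastp, HISAT2, HTSeq and R 3.2.0 with mm10, and the labels name another extraction reagent and library kit. The annotation is not given in the sources used here. The authors deposited FPKM, 1 value per gene and sample, not pooled. Counts were not used here. The study states a narrow range of clean sequence per sample, but the number of fragments behind each FPKM value is unknown, so no counting error is given. Of 7992 low values, 28% came within 0.05 of being whole when divided by the gene's smallest value above 0, so reads were not rebuilt. The FPKM of a sample summed to between 444660 and 506622. No columns were identical.

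The test covered the 15288 genes whose FPKM averaged 0.1 or more across samples. Values of log2(FPKM + 0.1) were fitted with limma 3.58.1 in R 4.3.3 (expression trend on), 1 fit per pair of groups, with Benjamini-Hochberg adjustment over all these genes. The fold change of low genes is understated on this scale. Genes were called from an adjusted p under 0.05 together with a change of more than 1 on the log2 scale. The labels do not say whether the 4 samples of a group are separate mice, so p-values measure the spread between these samples. Simulated data had normal noise and 200 genes, all with a mean of at least 1 FPKM, changed by 2 on the log2 scale. Of these, 190 were recovered for IMQ + NS against control (15413 genes) and 195 for IMQ + BZLF against IMQ + NS (15246). For IMQ + BZLF against control 187 were recovered (15363). Of the unchanged genes 1, 1 and 7 were called. Recovery of genes with lower levels, or with as many genes changed as called here against control, was not measured.

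The genes and the lists were chosen with earlier results of these data known. Named were the 9 genes, the 3 closest profiles to each, and from 13 lists each called gene where 5 or fewer were called, otherwise the 2 largest rises and falls. Lists for composition covered neutrophils, fibroblasts, adipocytes, skeletal muscle and seminal vesicle. Alternatives were other constants, filters and scalings, all samples in one fit, no trend, the replicate number as a block, other call rules and leaving out each sample. Python 3.11.15, pandas 2.3.3 and matplotlib 3.10.9 were used. Positions are from RefSeq on GRCm38.p6, the build of mm10, and transcripts from GENCODE M21.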

Additional observations from a re-analysis of the deposited data

Results flagged for a closer look

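In control replicate 2 the FPKM of Tchh (203), Crnn (19.8) and Tchhl1 (1.97) lay far above the other 3 controls. The gap to the next control took up 0.984, 0.976 and 0.972 of the range of the group, which is above Dixon's 95% critical value for 4 samples. Of 27 groups of 4 examined, 1 for each gene and group, these 3 stood out, and chance alone marks about 1 in 20. The same library had 1771 FPKM of inner root sheath keratins and 39.1 FPKM of seminal vesicle genes. Its Lor, Flg2, Hrnr and Ivl were each the lowest of the controls.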

How the results depend on the processing

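Over the 9 genes, 3 comparisons and all alternatives, 432 log2 fold changes kept their direction and their side of the threshold, 23 were no longer called, 2 became called and 2 changed sign. The 2 changes of sign were those of Flg in IMQ + BZLF against IMQ + NS, which was not called, without IMQ + BZLF replicate 3 (-0.21) and without IMQ + NS replicate 4 (-0.23), in a range from -0.23 to 0.29 over the samples left out. In IMQ + NS against control the number of genes that fell was 1 in place of 2 with all genes kept, without the trend and with the replicate block, because Lor was then not called (adjusted p = 0.0696, 0.0522 and 0.0903), and between 1 and 2 when each sample was left out. With all genes kept, which tests more genes, 0 genes were lower in IMQ + BZLF against IMQ + NS, where Rptn had an adjusted p of 0.0597, and Hrnr was not called against control (0.0585), nor was it with quantile normalization (0.0532). With each sample left out, the number after BZLF was 0 to 1 higher and 0 to 1 lower, and against control 1 to 2 lower. Hrnr became called in IMQ + NS against control without IMQ + NS replicate 4 (1.27, adjusted p = 0.0205). The numbers that rose against control stayed within 1.5 times under every alternative. Same-numbered samples did not deviate together in every pair (correlations from -0.15 to 0.26). Replicates 3 and 4 matched best to the same number in all 3 comparisons, with correlations from 0.11 to 0.26, and replicates 1 and 2 did not. The labels name no pairs or batches, so the numbers were not taken as pairs. The block moved no other call of the 9 genes. Among the counts of the lists, 43 moved by more than 1.5 times and 1439 did not. The cause of these shifts was not tested. Constants of 0.01 and 1 and median ratio scaling changed no call of the 9 genes. The number of fragments per value is unknown, which limits the precision of low values such as those of Tchhl1 in control samples.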
